A study of Mus musculus with 2 samples.

Results

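The cells described here are the microglia of a single library, prepared from the hippocampus of mice with fetal growth restriction (FGR), and the question is which genes vary together from cell to cell within that library. Members were the barcodes with at least 1500 unique molecular identifiers (UMIs, 1 per captured transcript), at least 200 genes, at most 10% mitochondrially coded UMIs, and at least 50 UMIs summed over C1qa, C1qb, C1qc, Csf1r, P2ry12, Cx3cr1 and Tmem119. Of 8618 FGR barcodes within the first 3 limits, 8298 were members (96.3%, exact 95% binomial interval 95.9 to 96.7%). The 2 libraries of the study held 19305 barcodes within those 3 limits. Both came from mice heterozygous for the Tmem119-tdTomato reporter (Tmem119-tdTomato+/-), at 3 weeks after birth, and differed by the label Control or FGR. Tmem119-positive cells had been sorted by flow cytometry and put through 10x Genomics 3′ single-cell sequencing. The sort and the membership rule both use Tmem119, so cells without it were selected against. The labels name neither the way FGR was produced nor the number of animals behind a library. Each group was 1 library, so cells are not replicates, no test was possible, and every interval covers counting error only.

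Microglia are the resident macrophages of the brain. At rest they survey their surroundings with purinergic receptors such as P2ry12 and depend on signals through Csf1r, the receptor for colony-stimulating factor. On stimulation they switch on immediate early genes, then NF-kB target genes, which include the inhibitors Nfkbia and Tnfaip3 that shut the same pathway off. Glucocorticoid hormones act through a nuclear receptor that raises another set of genes, among them Tsc22d3 and Fkbp5. Ddit4, an inhibitor of the growth regulator mTORC1, is raised by glucocorticoids and by several kinds of cell stress.

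The members carried 44520405 UMIs. The shallowest cell had 1530 UMIs, the median cell 4973.5 and the deepest 25293, with a median of 2084 genes and 1.91% mitochondrially coded UMIs. All 12 microglial markers examined were detected. C1qa, a subunit of the complement starter C1q, was found in every member, with 5 UMIs in the lowest cell, 36 in the median cell and 185 in the highest. P2ry12 ran from 0 through a median of 13 to 97 UMIs per cell, and Csf1r from 0 through 13 to 60. These genes belong to the rule, so their presence is no finding. Fcrls, a microglial gene that the rule did not use, ran from 0 through a median of 9 to 52 UMIs per cell, at 1787 CPM.

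Markers of other cell types were low. Summed levels in CPM (counts scaled to a fixed total of UMIs) were 41.9 for 8 border macrophage genes, 3.48 for 10 neuronal genes, 1.71 for 6 fibroblast genes and 37.5 for 10 endothelial and mural genes. Of 9 monocyte and neutrophil genes 7 were at 0, and of 9 lymphocyte genes 6 were at 0. The 12 oligodendrocyte lineage genes reached 94.5 CPM in members and 1488 CPM in free RNA, read from near-empty barcodes of 10 to 100 UMIs. The 9 astrocyte genes reached 315 CPM and the 7 neural progenitor genes 334 CPM, with 1 gene in each list at or above 10 CPM. Free RNA was below the members for border macrophage (16.8 CPM), neural progenitor (194 CPM) and lymphocyte genes (27.1 and 29.9 CPM). It was above them for the other non-microglial lists. The 97 barcodes just inside the marker limit (50 to 59 UMIs) had a median of 2502 UMIs in all and 2.66% mitochondrially coded UMIs, and the 100 just outside it (40 to 49) had 2160 and 3.83%. Among the members, 30 barcodes (0.362%) also occurred among the Control cells. Clustering of the members gave 8 clusters. Of these, 4 were under 5% of members and held 284 cells together. Their leading genes were Slc1a2 and Ptn in 61 cells, Ifit3 and Ifitm3 in 98, Sfi1 and Mbd4 in 107, and Mki67 and Top2a in 18. The cluster of 98 also held the border macrophage gene Pf4, in 17.3% of its cells, at 246 CPM beside 0.387 CPM in the rest. At the finer resolution of 1.0, 13 cells led by Pf4 stood apart, so some members resemble border macrophages.

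Variation between cells was separated from counting error by drawing UMIs. From each of the 7852 members with at least 3000 UMIs, 2 draws of 1500 UMIs that share no molecule were taken. Counting errors of the draws are independent, so the covariance between them reflects differences between cells. The between-cell coefficient of variation (CV) is the square root of a gene's covariance between draws over its mean. The split-draw r is the plain correlation of a gene with itself between draws. The corrected correlation of 2 genes is their covariance across draws over the product of their between-cell standard deviations, and sampling can carry it past 1. All correlations are over 7852 cells of 1 library at 1 fixed depth, and are descriptions with no p. Ranges in brackets after a correlation run over 10 other sets of draws or cells. They leave out the value given, which can lie outside them.

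Of 3311 genes with at least 50 CPM, 1339 (40.4%) had a split-draw r of at least 0.05, and their median CV was 0.608. Of all 3311 genes, 131 had a CV of at least 1. The most uneven transcripts were those of stress, heat shock and inflammatory genes, each held by few cells. Gdf15, a stress-induced cytokine, had the largest CV, 6.25. It was at 0 in 96.4% of the draws, reached 15 UMIs per 1500 in the highest cell, and had 43.2% of its UMIs in 1% of the cells. Hspb1, a small heat shock chaperone, followed at 5.91, with 14 UMIs in its highest cell. The heat shock genes Hspa1b and Hspa1a had CVs of 3.88 and 2.88, and their corrected correlation was 0.49 (0.48 to 0.50). They are near-identical neighbours, so reads may have been split between them.

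Secreted signals made up a large share of the same group. Cxcl10, a chemokine for T cells, had a CV of 4.80 (4.02 without the small clusters), with 39 UMIs in the highest cell and 83.5% of its UMIs in 10% of the cells. Ccl2, which attracts monocytes, had 4.23. Csf1, a ligand of Csf1r, had 3.12. Ccl12, a relative of Ccl2, had 3.09, and 1.91 without the small clusters. Tnf, the cytokine TNF-alpha, had 2.84. Also among the 15 genes with the largest CV were Apoe (2.82), a lipid carrier, the deubiquitinase Otud1 (2.76), the phosphatase Dusp2 (2.72), the proteoglycan Sdc4 (2.71) and the lipase Lpl (2.58).

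The level of Apoe was 1524 CPM. Its draws held 0 UMIs in 53.2% of cells and 173 UMIs in the highest cell, and 59.8% of its UMIs came from 10% of the cells. Its closest partner was Lyz2, the lysozyme gene of macrophages, at 0.49 (0.47 to 0.58). At the other end stood the genes that define the cells. C1qc had a CV of 0.195, Csf1r 0.207, C1qb 0.225, C1qa 0.240, Cx3cr1 0.318, Tmem119 0.367 and P2ry12 0.406. The rule set a floor under the sum of these 7 genes, which limits their spread. Tnfaip3 (1.05) and Ddit4 (0.869) lay between these groups.

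**Figure D1:**
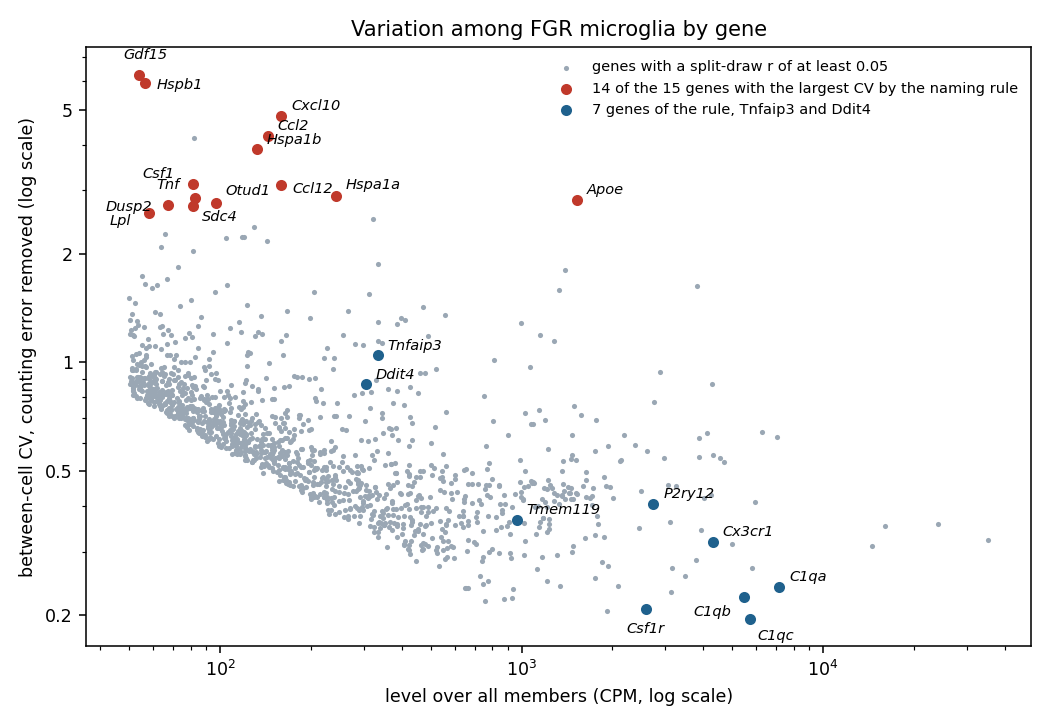
Between-cell CV (vertical, log scale, no unit) against the level over all members in CPM (horizontal, log scale), 1 point per gene with a split-draw r of at least 0.05, apart from a few genes not reported here. Red points are 14 of the 15 genes with the largest CV after predicted, ribosomal, mitochondrial and sex-linked genes are left out, from Lpl at 2.58 to Gdf15 at 6.25, and blue points are the 7 rule genes, Tnfaip3 and Ddit4, from C1qc at 0.195 to Tnfaip3 at 1.05.

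After predicted, ribosomal, mitochondrial and sex-linked genes were left out, 1220 genes formed 743590 pairs. Most pairs did not vary together: the median corrected correlation was 0.008 and 87.1% of pairs lay between -0.2 and 0.2. At 0.5 or above were 1128 pairs (0.152%), and 147 were at -0.5 or below. Average-linkage clustering of the corrected correlations gave 14 modules of at least 5 genes. The modules were built from these correlations, so the correlations within them describe the grouping and support nothing further.

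**Figure D2:**
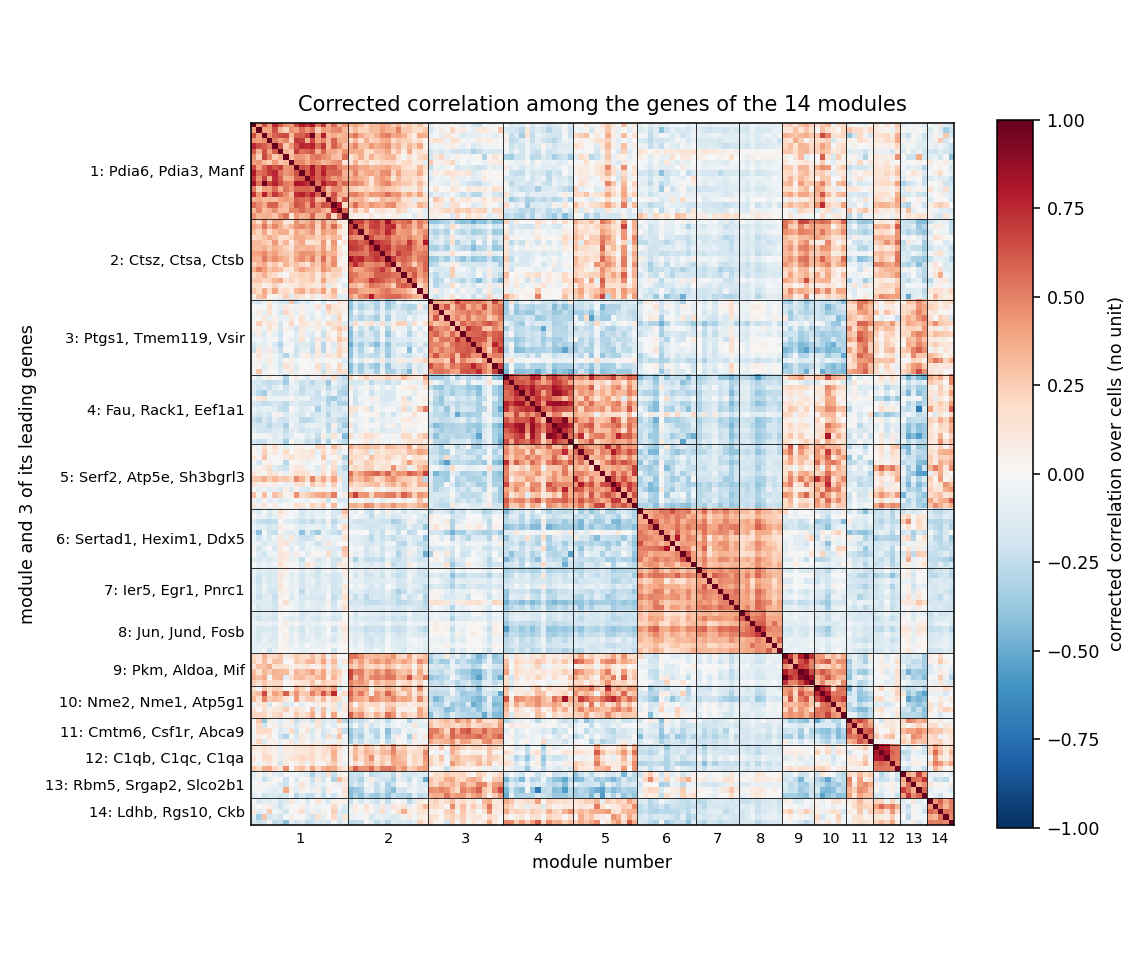
Corrected correlation over 7852 cells (colour, no unit, values beyond 1 drawn as 1) for every pair of genes in the 14 modules, which are separated by lines and numbered by size. Red blocks on the diagonal are the modules, and the red square across modules 6, 7 and 8 joins those led by Sertad1, Egr1 and Jun.

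The largest module held 18 genes, led by genes of protein folding in the endoplasmic reticulum (ER), and is called the ER module here. Its leading genes were the disulfide isomerases Pdia6 and Pdia3, the ER-stress-induced secreted factor Manf, Sdf2l1, and the chaperones Calr and Hsp90b1. Hspa5, the main ER chaperone, and Xbp1, a transcription factor of the unfolded protein response, were also members. The median corrected correlation of its pairs was 0.48 (0.53 to 0.61), with the lowest pair at 0.14 and the highest at 0.98. Every other set of draws or cells thus gave a higher median. When cells were ordered by the module's UMIs in the first draw, its level in the second draw was 4878 CPM in the 1963 lowest cells (the low end) and 9914 CPM in the 1963 highest (the high end), a 2.03-fold difference. Sdf2l1 differed most, with 104 and 394 CPM (3.81-fold), followed by Manf with 215 and 574 CPM (2.67-fold). Hspa5 had 668 and 1617 CPM (2.42-fold). Depth and mitochondrial share were alike at both ends, with medians of 5064 and 5214 UMIs and 1.97% in each.

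Promoters of this module are shown because some of its genes share a sequence. RefSeq promoter windows (build GRCm38.p6, 250 bases before to 50 after the start site) were at hand for 15 of the 18 genes. The ER stress element, CCAAT and then CCACG with any 9 bases between them, searched on both strands, was in 6 of the 15 (Calr, Canx, Dnajc3, Hsp90b1, Hspa5 and Pdia6). Over all 27025 genes with a window, 37 held it (0.137%). A shorter element, ATTGG and CCACG with any 1 base between, was in Dnajb11 alone among the 15 and in 0.0444% of all genes. Below are the 200 bases before the start of 4 of them, 5′ to 3′ along the gene's strand, with the ER stress element in capitals. In Hspa5 and Pdia6 it reads as spelled, and in Hsp90b1 and Calr as its reverse complement.
Hspa5, chr2:34771890-34772089, plus strand: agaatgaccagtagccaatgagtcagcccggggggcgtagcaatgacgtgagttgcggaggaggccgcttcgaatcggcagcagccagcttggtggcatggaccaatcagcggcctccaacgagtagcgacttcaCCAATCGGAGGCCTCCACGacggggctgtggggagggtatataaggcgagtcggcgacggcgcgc
Pdia6, chr12:17266389-17266588, plus strand: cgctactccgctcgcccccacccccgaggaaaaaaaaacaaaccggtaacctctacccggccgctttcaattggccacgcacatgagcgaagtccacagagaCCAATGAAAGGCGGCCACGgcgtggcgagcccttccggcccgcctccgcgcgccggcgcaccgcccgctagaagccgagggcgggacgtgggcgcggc
Hsp90b1, chr10:86705445-86705644, minus strand: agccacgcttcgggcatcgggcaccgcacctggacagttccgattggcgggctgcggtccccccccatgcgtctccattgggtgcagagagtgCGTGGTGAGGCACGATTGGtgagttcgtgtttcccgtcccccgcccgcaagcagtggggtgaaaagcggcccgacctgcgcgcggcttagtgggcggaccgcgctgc
Calr, chr8:84846932-84847131, minus strand: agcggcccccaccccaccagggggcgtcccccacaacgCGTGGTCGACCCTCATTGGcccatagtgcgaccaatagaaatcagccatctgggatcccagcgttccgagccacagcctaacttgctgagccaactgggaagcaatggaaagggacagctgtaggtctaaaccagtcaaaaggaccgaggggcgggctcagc
In Hspa5 the match lies 65 to 47 bases before the start and in Pdia6 98 to 80. In Hsp90b1 it lies 107 to 89 bases before the start, and in Calr 162 to 144. No gene with a window in the other 13 modules held this element, which says only that these letters are not there. A match describes letters in the window, and binding was not measured.

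A module of 15 genes held lysosomal proteins. Its leading genes were the cathepsins Ctsz, Ctsa, Ctsb and Ctsd, which degrade proteins in lysosomes, the tetraspanin Cd63 and the macrophage protein Cd68. The median correlation of its pairs was 0.53 (0.46 to 0.64). Its level was 11438 CPM at the low end and 22340 CPM at the high end, 1.95-fold. Cd63 differed most, with 236 and 949 CPM (4.03-fold), and Ctsd, the most abundant, had 4108 and 8383 CPM (2.04-fold). The palindrome TCACGTGA, known from lysosomal gene promoters, was in the windows of Ctsa and Ctsd, 2 of 14 in this module, and in 2 of 15 of the ER module (1.12% of all genes). It was also in 1 of 12 genes of the module with P2ry12, 1 of 10 of that led by Fau, and 1 of 9 of that led by Sertad1. These shares do not set the lysosomal module apart. A smaller module of 6 genes around glycolysis followed the lysosomal one, at 0.52 (0.52 to 0.63). It held Pkm, Aldoa, Tpi1, Gapdh and Ldha, enzymes of glycolysis, and the cytokine Mif. The ER and lysosomal modules also varied together, at 0.51 (0.50 to 0.55).

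A module of 14 genes, called the P2ry12 module here, held 7 of the 20 homeostatic genes. It was led by Ptgs1, Tmem119, Vsir, P2ry12, Selplg and Serinc3. Its pairs had a median correlation of 0.49 (0.46 to 0.55). P2ry12 had 1807 CPM at the low end of this module and 3728 CPM at the high end, 2.06-fold. Tmem119 had 681 and 1276 CPM (1.88-fold), and the fructose transporter Slc2a5 had 214 CPM over all members and differed 2.32-fold. A module of 5 genes, among them Cmtm6, Csf1r, Abca9 and Itgam, followed it at 0.67 (0.69 to 0.78). Another, with Rbm5, Srgap2, Slco2b1, Cep68 and Sall1, which keeps microglia in their identity, followed at 0.56 (0.50 to 0.68). In that last module the median pair correlation was 0.50 in these draws and 0.27 to 0.48 in the others. P2ry12, Tmem119, Cx3cr1 and Csf1r are genes of the rule.

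The C1q genes varied together more closely than with the receptor genes of the rule. C1qa, C1qb and C1qc formed a module with Itm2b and Trem2, a lipid receptor of microglia. C1qa and C1qb correlated at 0.81 (0.73 to 0.86), and P2ry12 and Tmem119 at 0.59 (0.56 to 0.70). C1qa and C1qc correlated with P2ry12, Tmem119, Cx3cr1 and Csf1r at 0.22 to 0.30, and C1qb with the same genes at 0.04 to 0.10. In the other sets of draws or cells these values ran from 0.03 to 0.32 and from -0.01 to 0.18, so they overlapped. The summed C1q module and P2ry12 module correlated at 0.30 (0.20 to 0.31). The C1q module went with a module of Ldhb, Rgs10, Ckb, Cst3 and Mpc1 at 0.54 (0.49 to 0.55). Cst3, the secreted cathepsin inhibitor cystatin C, was the most abundant gene there, with 22915 CPM at the low end and 49655 CPM at the high end, 2.17-fold.

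The modules of translation and of small proteins moved with the mitochondrial share. The translation module held 13 genes, led by Fau, Rack1, Eef1a1, Tpt1, Eef1b2 and Naca, among them a ribosome-associated protein and elongation factors. It had a median pair correlation of 0.64 (0.68 to 0.74) and differed 2.10-fold between the ends, from 9237 to 19402 CPM. The mitochondrially coded share was 1.35% at its low end and 2.73% at its high end, and median depth was 4692 and 5711 UMIs. The next module held 12 genes, led by Serf2, Atp5e, Sh3bgrl3, Tmsb4x, Tyrobp and Atox1, and correlated with the translation module at 0.60 (0.57 to 0.62). Another module held Nme2, Nme1, Atp5g1, Prdx1, Ppia and Npm1. The P2ry12 module ran against it at -0.48 (-0.63 to -0.46) and against the translation module at -0.38 (-0.40 to -0.31). The part of RNA quality in these modules was not tested.

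Of the 26 immediate early genes, 8 were in 1 module and 4 in another, and these modules varied together. The first held 8 genes: Jun, Jund, Fosb and Fos, which encode AP-1 subunits, the phosphatase Dusp1, and the transcription factors Klf6, Klf2 and Klf4. Its level was 8029 CPM at the low end and 41168 CPM at the high end, 5.13-fold, the widest range of the 14 modules. Klf2 had 221 and 3317 CPM (14.98-fold), Fosb 211 and 2321 CPM (11.02-fold) and Fos 1149 and 8407 CPM (7.32-fold). Fos was at 0 UMIs in 13.6% of the draws, 5 in the median draw and 40 in the highest. The second held 8 genes, among them Ier5, Egr1, Pnrc1, Btg2, Rhob, Ier2 and H3f3b, and differed 3.20-fold, from 11586 to 37033 CPM. Egr1, an immediate early transcription factor, had 848 and 5368 CPM (6.33-fold) between the ends of that module.

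A module with none of the immediate early genes varied with both. It held 11 genes, led by Sertad1, Hexim1, Ddx5, Srsf5, Atf4 and Srsf3, regulators of transcription, splicing and the stress response. This module correlated with the Egr1 module at 0.73 (0.73 to 0.77) and with the Jun and Fos module at 0.64 (0.63 to 0.67). The other 2 correlated at 0.72 (0.71 to 0.74). Cells high in the Jun and Fos module had 1.44% mitochondrially coded UMIs and cells low in it 2.33%, at median depths of 4952 and 4989 UMIs. The part of the mitochondrial share was not tested.

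**Figure D3:**
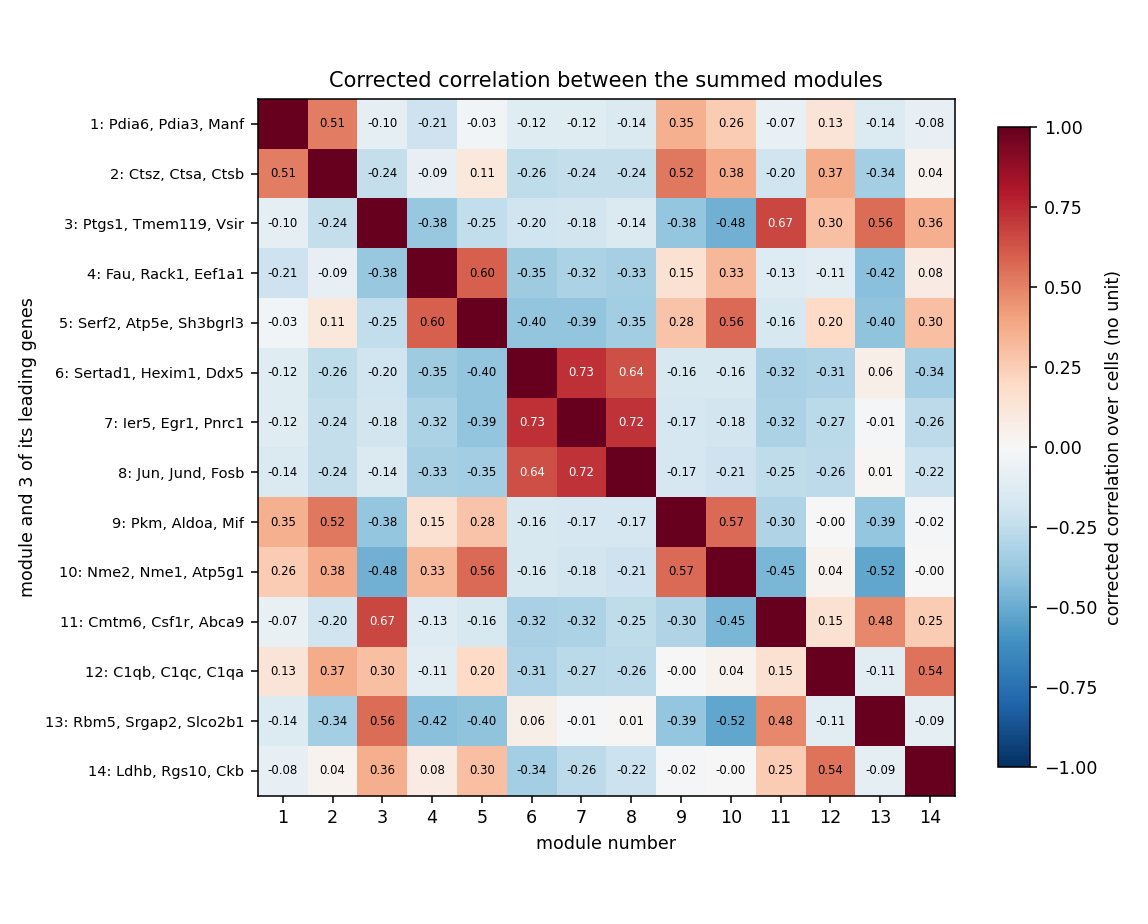
Corrected correlation (colour and printed value, no unit) between the summed UMIs of the 14 modules over 7852 cells. Modules 6, 7 and 8 form a red square of 0.64 to 0.73, and the P2ry12 module 3 goes with modules 11 and 13 (0.67 and 0.56) and against module 10 (-0.48).

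Lists of genes were then read along ordered cells. Cells were ordered by the UMIs of a list in the first draw, and levels in the second draw were compared between the high and low ends of 1963 cells each. A gene of at least 50 CPM at either end was called higher or lower when the levels differed at least 1.5-fold. A gene below 50 CPM at 1 end entered through its higher end alone, so the genes measured differ between orders. Egr3, Dusp2, Hspb1 and Cxcl2 entered so in some orders below. Their calls there were nearly fixed by this limit and are no support. An end is a range and not a cell type. Counts over all genes include the genes that ordered the cells, whose direction was fixed by the order. For the immediate early list, 275 cells lay within 1 UMI of the lower limit (42 UMIs) and 173 within 1 UMI of the upper (87 UMIs). Lists were chosen with earlier results of these data known.

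Along the 26 immediate early genes, 178 of 3550 genes (5.01%) were higher and 85 (2.39%) lower at the high end. With 10% of the cells at each end in place of 1963 they were 291 and 346, so the balance turned. The median log2 difference over all genes was -0.07. Of 16 NF-kB genes measured, 11 were higher and 0 lower, with a median log2 difference of 0.87. Summed over whole lists, though, immediate early and NF-kB genes had a corrected correlation of only 0.17 (0.15 to 0.19). The immediate early list had 0.32 (0.30 to 0.34) with glucocorticoid response genes and 0.55 (0.54 to 0.56) with histone genes. H3f3b, of the Egr1 module, had 6259 of the 8834 CPM of the histone list, so it weighs most in that value. Genes held by both lists of a pair were left out. Nfkbiz, a nuclear modulator of NF-kB, had 128 CPM at the low end and 485 CPM at the high end (3.78-fold), and Tnfaip3 had 136 and 416 CPM (3.07-fold). Of 11 histone genes 5 were higher, among them H3f3b with 3480 and 9324 CPM (2.68-fold) and the linker histone Hist1h1c with 246 and 602 CPM (2.45-fold). Of 11 glucocorticoid response genes 4 were higher, led by the cell cycle inhibitor Cdkn1a with 67.6 and 193 CPM (2.85-fold). Heat shock genes gave 3 of 11, namely Hspb1 (25.5 and 96.8 CPM), Dnajb1 (54.0 and 205 CPM) and Hspa1a (136 and 446 CPM).

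Lower at the high end of the immediate early order were some mitochondrial and ribosomal genes. Of 13 mitochondrially coded genes 9 were lower at the high end, with a median log2 difference of -0.60, and of 24 nuclear genes of oxidative phosphorylation 6 were lower, with a median of -0.42. Ndufa1, a subunit of complex I, had 75.4 CPM at the low end and 39.4 CPM at the high end. Of 32 ribosomal protein genes 4 were lower, with a median of -0.51. The mitochondrially coded share was 2.27% at the low end and 1.46% at the high end, median depth was 4912 and 4952 UMIs, and 90 genes of other cell types summed to 926 and 861 CPM. Their part in the result was not tested. Cluster 0, led by Tia1 and Gpr165, gave 72.7% of the low end and 0.866% of the high, and cluster 2, led by Klf2 and Fosb, 1.73% and 68.4%. Cluster 0 differed more by what was low in it. Tia1 had 127 CPM there and 85.7 CPM in the rest, Fos 1780 and 5256 CPM, and Cd83 158 and 475 CPM.

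Along the 24 NF-kB targets and inhibitors, 99 of 3538 genes (2.8%) were higher and 46 (1.3%) lower. Within 1 UMI of the lower limit (6 UMIs) lay 1381 cells, and 444 within 1 UMI of the upper (20 UMIs). The list's own genes chose the order and are a description: Ccl4, a chemokine, had 348 and 10842 CPM, Ccl3 had 176 and 3689 CPM, and Tnf 25.5 and 150 CPM. Ccl4 correlated with Nfkbia at only 0.17 (0.11 to 0.18) and with Tnfaip3 at 0.14 (0.09 to 0.14). An order in which Ccl4 counts for much is therefore not the order of Nfkbia or Tnfaip3. Of 23 immediate early genes measured, 13 were higher and 0 lower, with a median log2 difference of 0.65 beside -0.11 over all genes. Egr3 had 16.6 and 73.7 CPM, Dusp2 25.8 and 108 CPM, and Atf3, a stress-induced transcription factor, 519 and 1821 CPM (3.51-fold). Of 8 genes of disease-associated and axon-tract microglia 4 were higher. These were Csf1 (31.6 and 161 CPM, 5.09-fold), Apoe (1053 and 2125 CPM, 2.02-fold), Lpl (43.1 and 78.8 CPM) and Cd63 (401 and 676 CPM). None of 20 homeostatic genes passed 1.5-fold, and their median was -0.31.

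Glucocorticoid response genes went both ways along the NF-kB order, with 2 of 11 higher and 2 lower. Mt1, a metallothionein, had 121 and 312 CPM and Cdkn1a 70.0 and 147 CPM. Ddit4 had 410 CPM at the low end and 219 CPM in the high, and Cebpd, a transcription factor, 278 and 176 CPM. Median depth was 4659 UMIs at the low end and 5456 at the high end, and the mitochondrially coded share 1.76% and 2.13%. The part of depth was not tested beyond the fixed size of the draws. Cluster 1, led by Ccrl2, Gadd45b and Cd83, gave 7.28% of the low end and 49.6% of the high. Cluster 4, led by Spp1, Lgals3 and Csf1, gave 1.63% and 16.3%.

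Along the 14 glucocorticoid response genes, 34 of 3480 genes (0.977%) were higher and 41 (1.18%) lower. The range of this list was narrow, from 6 UMIs or fewer to 11 or more per 1500, and 2168 cells lay within 1 UMI of the lower limit and 1559 within 1 UMI of the upper. Of the list's own genes Txnip, an inhibitor of glucose uptake, had 1122 and 2776 CPM, the kinase gene Sgk1 936 and 2238 CPM, and Tsc22d3 407 and 773 CPM. Heat shock genes were higher in 4 of 11, led by Hspa1a with 183 and 371 CPM (2.02-fold). Of 21 immediate early genes, Klf2 (921 and 1812 CPM) and Fosb (780 and 1214 CPM) were higher. Lower were 4 of 8 genes of disease-associated and axon-tract microglia, with Apoe at 2222 CPM at the low end and 781 CPM in the high. Of 13 mitochondrially coded genes 8 were lower and of 32 ribosomal protein genes 5. The mitochondrially coded share was 2.42% at the low end and 1.54% at the high end, and median depth 5499 and 4731 UMIs. Their part was not tested.

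Along the 20 homeostatic genes, 40 of 3501 genes (1.14%) were higher and 110 (3.14%) lower at the high end. Cst3 had 35264 of the list's 75715 CPM, so it counts for much in this order. Its module and the P2ry12 module correlated at 0.36 (0.32 to 0.43). Of 17 NF-kB genes 11 were lower and 0 higher, with a median log2 difference of -0.74 beside 0.00 over all genes. The chemokine Cxcl2 had 84.9 CPM at the low end and 12.9 CPM at the high end, and Tnf 126 and 42.5 CPM. Of 23 immediate early genes 10 were lower, among them Egr1 with 4019 and 1812 CPM. Of 8 genes of disease-associated and axon-tract microglia 4 were lower: Apoe (2866 and 741 CPM), Lpl (93.7 and 26.8 CPM), Csf1 (126 and 45.2 CPM) and Cd63 (688 and 334 CPM). Of 16 complement and phagocytic receptor genes 2 were lower, namely the anaphylatoxin receptors C3ar1 (282 and 153 CPM) and C5ar1 (109 and 70.0 CPM), while the list's median was 0.31. This list shares genes with the membership rule, and 299 and 296 cells lay within 1 UMI of its limits (97 and 132 UMIs). Median depth was 5340 and 4894 UMIs. Cluster 4, led by Spp1, Lgals3 and Csf1, gave 15.6% of the low end and 1.32% of the high.

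**Figure D4:**
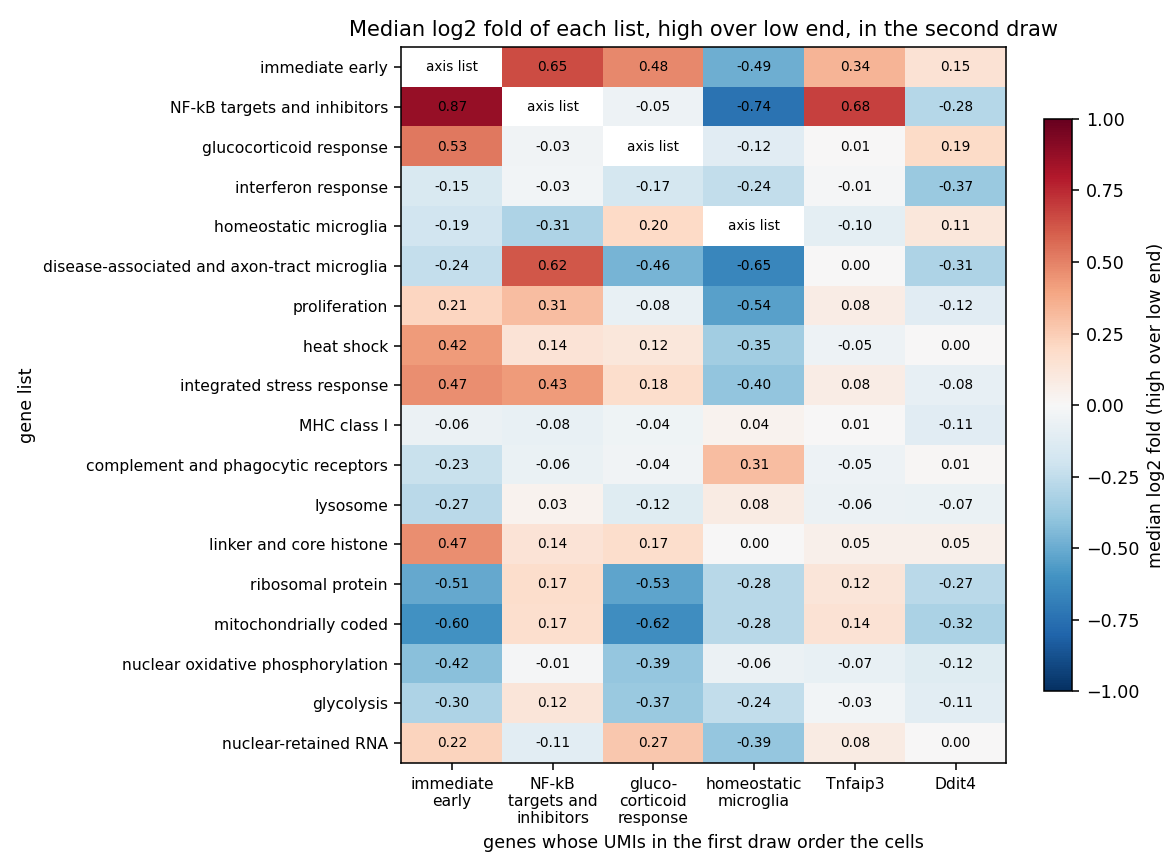
Median log2 difference in level, high end over low end in the second draw (colour and printed value), for gene lists in rows and for the genes that ordered the cells in columns. NF-kB genes stand at 0.87 along the immediate early order and 0.68 along Tnfaip3, and at -0.74 along the homeostatic order and -0.28 along Ddit4.

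Tnfaip3 encodes A20, an enzyme that edits ubiquitin chains and ends NF-kB signalling. Its level was 334 CPM, with 0, 1 and 29 UMIs in the lowest, median and highest member. It was detected in 58.7% of members, and in 30.6% (29.6 to 31.6%) when each was thinned to 1500 UMIs. In the 55 barcodes with under 10 marker UMIs, at a median depth of 4453 UMIs, the thinned share was 3.64% (0.443 to 12.5%). The free RNA of barcodes of 10 to 100 UMIs held 358 CPM. Tnfaip3's split-draw r was 0.335, and its 1% highest cells held 3.61% of its UMIs, so its variation was spread over many cells.

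The gene closest to Tnfaip3 was Nfkbia, the inhibitor of NF-kB, at 0.51 (0.47 to 0.52). Zfp36, which destabilises inflammatory messenger RNAs, stood at 0.40 (0.38 to 0.46), the activation marker Cd83 at 0.40 (0.38 to 0.44), and Junb at 0.37 (0.32 to 0.38). Nfkbiz had 0.36 (0.35 to 0.43), Ifrd1 0.33 (0.30 to 0.38), Fos 0.32 (0.31 to 0.36) and Dusp1 0.32 (0.28 to 0.33). Birc3, an inhibitor of cell death, had 0.37 with a wide range (0.21 to 0.47), and Mapk6 0.32 (0.06 to 0.31, and 0.20 without the small clusters). Among the most negative values were Atp6v0b at -0.32 (-0.35 to -0.14, the last without the small clusters), then Apbb1ip, F11r and Otulinl between -0.28 and -0.26, each at -0.14 or nearer to 0 in another set. Apbb1ip had -0.12 without the small clusters. Klf2, of the Jun and Fos module, was at 0.05 (0.01 to 0.06) with Tnfaip3, while Fos and Klf2 had 0.38 (0.34 to 0.39) with each other.

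The promoters of Tnfaip3 and Nfkbia are shown because Nfkbia was the closest partner of Tnfaip3 and both windows hold a kappaB motif. The motif, GGG and TTTCC with any 2 bases between, searched on both strands, was in the windows of 5 of 18 NF-kB list genes (Cxcl2, Nfkb2, Nfkbia, Rel and Tnfaip3) and in 512 of 27025 genes in all (1.89%). These list genes were picked as known targets. The 200 bases before each start are given as above, with the motif in capitals, here as its reverse complement in both.
Tnfaip3, chr10:19015411-19015610, minus strand: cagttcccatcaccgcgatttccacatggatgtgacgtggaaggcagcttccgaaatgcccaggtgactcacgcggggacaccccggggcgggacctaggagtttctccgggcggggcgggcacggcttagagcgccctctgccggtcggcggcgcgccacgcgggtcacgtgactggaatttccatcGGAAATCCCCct
Nfkbia, chr12:55492648-55492847, minus strand: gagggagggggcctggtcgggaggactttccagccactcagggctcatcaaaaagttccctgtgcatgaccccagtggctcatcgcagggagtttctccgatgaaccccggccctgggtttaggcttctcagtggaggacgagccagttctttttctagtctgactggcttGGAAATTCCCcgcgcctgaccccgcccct
The match lies 12 to 3 bases before the start in Tnfaip3 and 29 to 20 in Nfkbia. In Nfkbia it overlaps a related motif, GGGA and TTCC with any 2 bases between. Binding was not measured.

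Cells were also sorted by their Tnfaip3 UMIs in the first draw. With 0 UMIs there were 5430 cells, with 1 there were 1624, with 2 there were 518 and with 3 or more 280. Across these classes Nfkbia in the second draw was at 1886, 2501, 2853 and 3348 CPM. Cd83 was at 307, 428, 634 and 664 CPM. Ddit4 was at 332, 305, 278 and 245 CPM. Nfkbia and Ddit4 thus ran in opposite directions across all 4 classes, and the counting intervals of the outer classes did not overlap for either. Those intervals leave out the spread between cells. Cells of the lowest class may still express the gene, since 1500 UMIs miss many transcripts.

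Between the 798 cells with at least 2 Tnfaip3 UMIs and the 5430 with 0, 36 of 3482 genes (1.03%) were higher and 10 (0.287%) lower, and 89 and 153 with a minimum of 20 CPM. Tnfaip3, which sorted the cells, was not left out of these counts. Of 16 NF-kB genes besides Tnfaip3 10 were higher, with a median log2 difference of 0.68 beside -0.04 over all genes. Cxcl2 had 28.0 and 76.0 CPM, Cd83 307 and 645 CPM (2.10-fold), and Tnf 62.6 and 124 CPM (1.97-fold). Of 23 immediate early genes 4 were higher, namely Dusp2 (51.1 and 95.2 CPM), Atf3 (1011 and 1699 CPM), Nr4a1 (102 and 170 CPM) and Ier3 (353 and 567 CPM). Of the other genes Gadd45b, a stress sensor, had 78.0 and 181 CPM, and Cxcl10 had 116 and 268 CPM. No homeostatic gene passed 1.5-fold. None of 8 genes of disease-associated and axon-tract microglia did so either, with a median of 0.0005, unlike along the NF-kB list. Median depth was 4919.5 UMIs in cells with 0 and 5555 in cells with 2 or more. Cluster 1 gave 24.4% and 54.6% of them.

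Ddit4 had a level of 306 CPM, with 0, 1 and 18 UMIs in the lowest, median and highest member. It was detected in 66.9% of members and in 34.3% (33.2 to 35.3%) after thinning to 1500 UMIs. In the 55 barcodes with under 10 marker UMIs the thinned share was 14.5% (6.50 to 26.7%), and free RNA held 303 CPM. Its split-draw r was 0.270. Its correlations were weaker and less stable than the leading ones of Tnfaip3. The largest was Eif4a2, a translation factor, at 0.39 (0.16 to 0.35). Xbp1 stood at 0.32, and at 0.11 without the small clusters. Osbpl11, Il6ra, Pnp, Tnfaip8, Slco2b1, Rbm5 and Zcchc7 lay between 0.29 and 0.31, and all but Slco2b1 were below 0.18 in at least 1 other set. Without the small clusters Pnp had 0.18 and Tnfaip8 0.15. Tsc22d3, the glucocorticoid-induced leucine zipper gene, kept its value, at 0.30 (0.29 to 0.36). Fkbp5, a glucocorticoid-induced co-chaperone, had 0.25 (0.25 to 0.43). The most negative values were the lysosomal cholesterol carrier Npc2 at -0.33 (-0.40 to -0.23), Lamp1 at -0.32 (-0.32 to -0.03), Eef1b2 at -0.30 (-0.32 to -0.15), Eef1a1 at -0.28 (-0.30 to -0.23) and Tpt1 at -0.27 (-0.28 to -0.21).

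Sorted by Ddit4 UMIs, the classes 0, 1, 2 and 3 or more held 5155, 1889, 562 and 246 cells. Tsc22d3 was at 556, 617.6, 709 and 783 CPM across them. Cd83 was at 413, 298, 234 and 209 CPM, and Ccl4 at 4061, 3109, 2542 and 2360 CPM. Nfkbia stayed nearer, at 2193, 2029, 1934 and 2000 CPM. Tsc22d3 was thus highest, and Cd83 and Ccl4 lowest, in the cells with most Ddit4.

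Between the 808 cells with at least 2 Ddit4 UMIs and the 5155 with 0, 14 of 3519 genes (0.398%) were higher and 19 (0.54%) lower, counts that changed with depth and limits. They were 330 and 192 with draws of 750 UMIs, and 124 and 77 with a minimum of 20 CPM. Ddit4, which sorted the cells, was not left out of these counts and had 240 and 655 CPM. Of 16 NF-kB genes 5 were lower and 0 higher, with a median log2 difference of -0.28 beside 0.05 over all genes. They were Tnf (82.5 and 40.4 CPM), Cd83 (413 and 226 CPM), Ccrl2 (294 and 177 CPM), Ccl4 (4061 and 2487 CPM) and Ccl3 (1475 and 927 CPM). Of 8 genes of disease-associated and axon-tract microglia 3 were lower: Csf1 (85.5 and 38.8 CPM), Lpl (56.9 and 28.9 CPM) and Apoe (1502 and 946 CPM). None of 10 other glucocorticoid response genes passed 1.5-fold, and their median was 0.19. The mitochondrially coded share was 2.03% with 0 and 1.57% with 2 or more UMIs, and median depth 5197 and 4699.5 UMIs. Their part was not tested. Tnfaip3 and Ddit4 correlated at -0.13 (-0.17 to -0.12), a weak value in sparse counts.

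**Figure D5:**
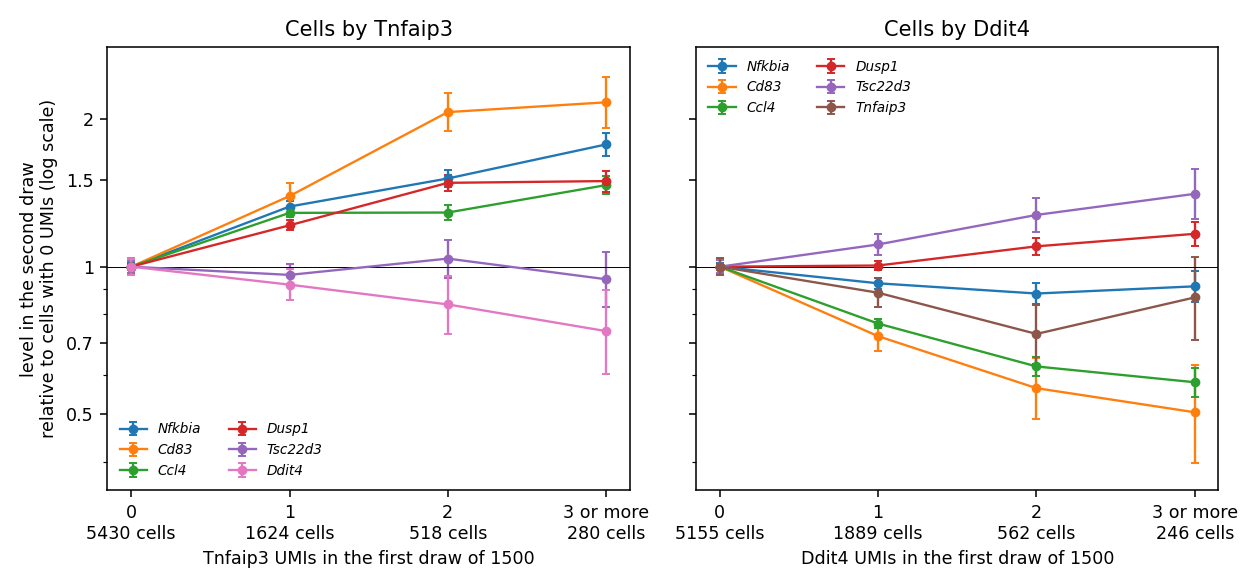
Level in the second draw relative to cells with 0 UMIs (vertical, log scale) for 6 genes in each panel, in cells grouped by Tnfaip3 UMIs (left) or Ddit4 UMIs (right) in the first draw, with 95% Poisson intervals of counting error relative to the level at 0. Cd83 and Nfkbia are higher with more Tnfaip3, and Cd83 and Ccl4 are lower with more Ddit4.

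The same values were read in the 9815 Control cells that met the rule and the depth limit, and are set beside those of the FGR cells with no test. The Jun and Fos module had a median pair correlation of 0.36 in Control and 0.45 in FGR cells, and the ER module 0.53 and 0.48. In the other sets of FGR draws or cells the ER module had 0.53 to 0.61, so its lower FGR value is that of 1 set. The lysosomal module had 0.55 and 0.53, and the P2ry12 module 0.37 and 0.49. Ccl3 and Ccl4 correlated at 0.69 and 0.66, and P2ry12 with Cd63 at -0.41 and -0.42. Tnfaip3 with Nfkbia had 0.28 in Control cells, where Tnfaip3 was at 79.9 CPM with a split-draw r of 0.106. Ddit4 with Tsc22d3 had 0.10 there, with Ddit4 at 52.6 CPM and a split-draw r of 0.0629. Ddit4 with Fkbp5 went the other way, at 0.35 in Control and 0.25 in FGR cells. Modules and pairs were chosen on the FGR cells, so the Control values are no test of them.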

How the data were processed

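The files hold deposited counts of UMIs, not normalized, 1 for each gene in each barcode. Per the file headers, Cell Ranger 4 wrote them. The submitters' processing notes name Cell Ranger 3.0, Seurat 5.0 and mm10. No source used here names the annotation behind the counts. Counts of symbols held by more than 1 gene ID were summed, and overlapping genes may share reads.

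Draws, CVs, corrected correlations and modules were computed in Python 3.11.15 (numpy 2.4.6, scipy 1.17.1) with fixed seeds, as the report describes, with the tree cut at a height of 0.6. The scripts were tested on simulated data. Clusters came from scanpy 1.11.5 (2000 variable genes, 30 components, 15 neighbours, Leiden resolution 0.5). Scrublet called 0 doublets in the members, so it has not worked and doublets remain. An alternative left out the 617 members with the highest scores.

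Levels have exact 95% Poisson intervals and shares exact binomial ones, for counting error only. The members carried medians of 4973.5 UMIs, and 446 members under 3000 UMIs gave no draws.

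Members, lists and comparisons were chosen with earlier results of these data known. Named genes are the 7 rule genes, Tnfaip3 and Ddit4, the 15 largest CVs, the 10 closest and 5 farthest partners of Tnfaip3 and Ddit4, 6 leading genes per module, and up to 4 members of each list by fold. Other genes, pairs and the 12 promoter motifs searched were chosen after values were seen. Some genes that this rule takes are not reported here. Alternatives changed draws, depth, cells, limits and cuts.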

Additional observations from a re-analysis of the deposited data

How the results depend on the processing

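No paired analysis was possible because each group was 1 library and no result comes from a test. Leaving out a replicate was not possible for the same reason. Some weak correlations near 0 changed sign between settings.

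The counts depended on depth and on the limits chosen. With draws of 750 UMIs, 594 genes in place of 1339 passed the split-draw limit and 334 pairs in place of 1128 reached 0.5. With draws of 3000 UMIs from the 2211 members deep enough for both draws, 2131 genes, 26637 pairs and 32 modules in place of 14 were found. There were 9 modules with a mitochondrial share of up to 5%, and 9 at a tree height of 0.5. At resolution 1.0, 15 clusters were found in place of 8.

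With 10% of the cells at each end, genes higher and lower were 291 and 346 along the immediate early list, 176 and 285 along NF-kB, 208 and 191 along the glucocorticoid list, and 205 and 288 along the homeostatic list. With a fold of at least 2 they were 83 and 1, 46 and 1, 4 and 4, and 0 and 23 in the same order, 5 and 0 for Tnfaip3, and 1 and 4 for Ddit4. The genes that ordered the cells were not left out of these counts. With a minimum of 20 CPM they were 294 and 190, 171 and 226, 138 and 91, and 87 and 285, then 89 and 153 for Tnfaip3 and 124 and 77 for Ddit4. The balance of higher and lower genes therefore depended on these limits.

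Draws of 750 UMIs gave 104 genes lower along NF-kB, 204 higher and 280 lower for Tnfaip3, and 330 higher and 192 lower for Ddit4. Draws of 3000 UMIs gave 144 lower along the immediate early list, 97 lower along NF-kB, 104 higher and 74 lower along the glucocorticoid list, 120 higher and 183 lower along the homeostatic list, and 4 lower for Tnfaip3. Without the small clusters, 55 genes were lower along the immediate early list and 24 along the glucocorticoid list. With at least 100 marker UMIs there were 55 lower along the immediate early list, 25 lower for Tnfaip3 and 22 higher for Ddit4. With a mitochondrial share of up to 5%, 23 were lower along the glucocorticoid list and 17 for Tnfaip3. Without the highest Scrublet scores, 24 were lower for Tnfaip3. Other seeds gave 16, 20 and 18 lower for Tnfaip3 and 24 higher for Ddit4. The causes were not tested. The other 145 summary values stayed within 1.5 times of those reported.

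Each draw holds 1500 UMIs, so genes near 50 CPM average less than 1 UMI per cell and their correlations are the least certain. A cell at 0 UMIs of Tnfaip3 or Ddit4 is not shown to lack the gene. Doublets were not removed. With 1 library, FGR and cell preparation cannot be told apart.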
